A study of Mus musculus with 8 samples.

Results

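The 32 genes described here encode enzymes of cholesterol synthesis, proteins that sense, take up or move sterols inside the cell, and proteins that store or export them. They were taken by symbol from a list set by function. The choice used no measured value as a rule, although earlier results of these data were known. All 32 were found among the 19301 genes of the expression table. They were split by role into 18 synthesis enzymes, 8 genes of uptake and sensing, and 6 genes of storage and efflux. Primary tendon stem cells (TSCs) isolated from the patellar tendon of C57BL/6J mice were compared after 4 days in low glucose (LG) medium with DMSO or in high fat, high glucose (HFHG) medium, which contains palmitic acid, a saturated fatty acid. Each group held 4 biological replicates (HFHG replicates 1 to 4 and LG replicates 1 to 4), and the culture medium of the cells carried fetal bovine serum, itself a source of lipoprotein cholesterol. Glucose and palmitic acid were changed together, so their effects cannot be told apart. Age and sex of the mice and the number of animals behind the replicates were not given in the sources used here.

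Animal cells make cholesterol from acetyl-CoA through mevalonate, farnesyl pyrophosphate, squalene and lanosterol, and they also take it up with lipoproteins. When sterols in the endoplasmic reticulum run low, SCAP escorts the transcription factor SREBP2 to the Golgi, where it is released by cleavage and turns on genes of synthesis and uptake, whereas INSIG proteins hold SCAP back when sterols are plentiful. Oxysterols bind the liver X receptors, which turn on export pumps such as ABCA1 and ABCG1 and the ligase IDOL, and any surplus is esterified by SOAT1 for storage in lipid droplets.

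Expression was deposited as FPKM, fragment counts scaled to gene length and to library size, so that levels of different genes can be set side by side. The library totals recovered from the FPKM steps were 34308108 to 37362725 reads, and the member with the fewest reads, Tm7sf2, had at least 150 in every library. LG replicate 4 stood apart from the other LG libraries on the component that held 4.18% of the variance, and the 3 pairs that included it varied 8.18 to 12 times as much as Poisson counts, against 3.45 to 4.77 times for all other pairs. Tendon and fibroblast markers were present, with Dcn, Col1a2 and Ly6a at 416 FPKM or more in every library, although Tnmd stayed at or below 1.19 FPKM. Of these 13 markers, 10 were higher and 2 were lower in HFHG (median log2 fold change 0.609), and their sum was 3396 to 3432 FPKM in HFHG and 2223 to 2237 FPKM in LG. Markers of macrophages were present too. Lyz2 was 1615 to 1662 FPKM in HFHG and 1736 to 1811 FPKM in LG, and the sum of the other 14 macrophage markers was 211 to 217 FPKM in HFHG and 281 to 297 FPKM in LG. Of the 14 macrophage markers tested, 10 were lower and 2 were higher in HFHG, and Cd163 was close to 0. The share that passed an adjusted p-value of 0.05 by limma was 92.3% for tendon and fibroblast markers and 85.7% for macrophage markers. Over all tested genes it was 64.8%. None of the 6 adipocyte markers in the table reached the level needed for testing.

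Log2(FPKM + 0.1) of the 11710 genes with at least 0.5 FPKM in at least 4 libraries was compared with limma, and the log2 fold changes (log2FC, HFHG minus LG) and adjusted p-values come from that fit to all tested genes. All 32 members passed this filter. Of them, 13 were higher in HFHG, 12 were lower and 7 did not pass an adjusted p-value of 0.05 by limma, so that 78.1% were called. Most of the transcriptome moved between these media, with 64.8% of all tested genes called (34% higher and 30.8% lower), and the count of members has to be read against that share. In size the changes were small. The largest were 0.72 upward and -0.83 downward on the log2 scale, and none of the 32 changed by more than 2-fold, against 5.33% of all tested genes. In 12 members every HFHG value lay above every LG value and in 10 every one lay below, and such separation was found for 59.2% of all tested genes. The median absolute log2FC was 0.287 for the members and 0.247 for all tested genes. Read by role, the members did not move as a block. Enzymes of the same chain rose and fell side by side, and the lysosomal exporters Npc1 and Npc2 fell together. In storage and efflux 4 of the 6 genes were lower (Soat1, Apoe, Nr1h2 and Nr1h3) and Abcg1 was higher. The groups overlapped for Nr1h2 and Nr1h3, and their calls were lost in some alternative fits.

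**Figure D1:**
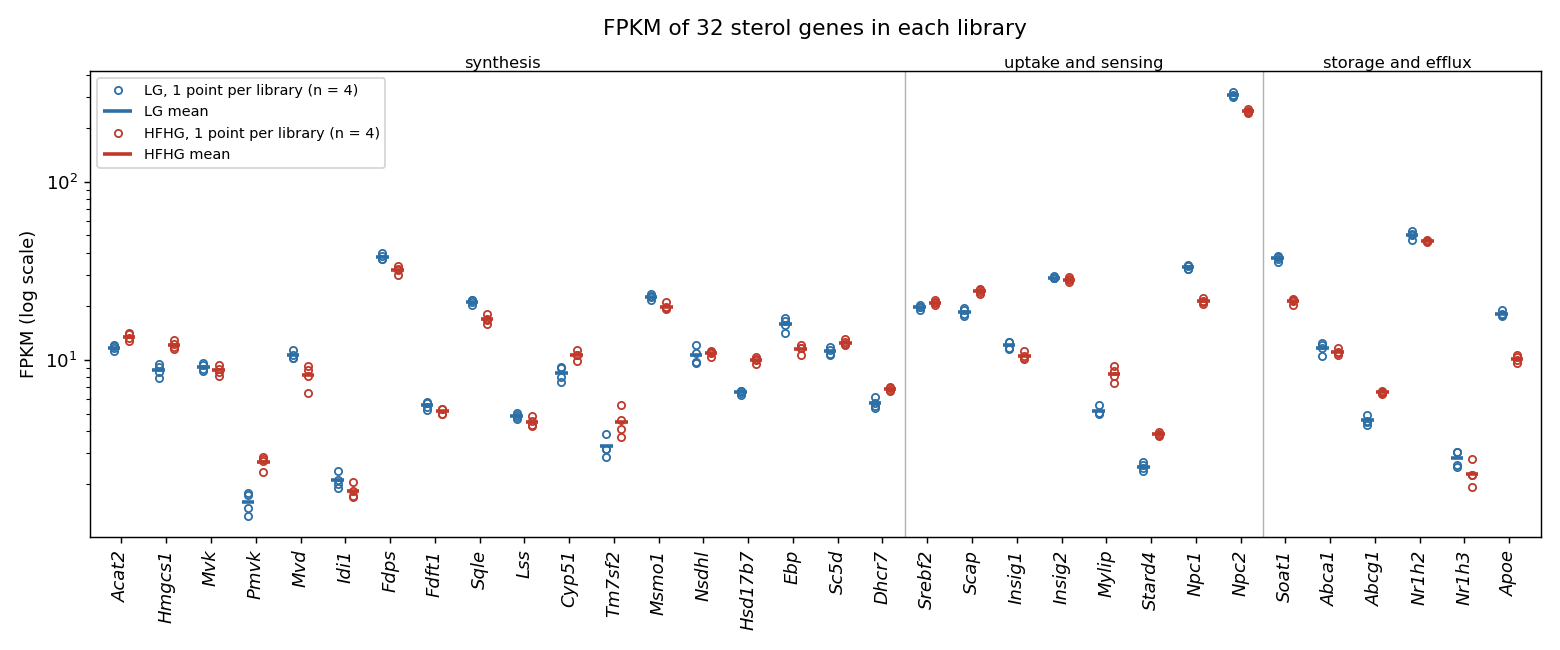
FPKM (log axis) of the 32 members in each of the 4 LG (blue) and 4 HFHG (red) libraries, with 1 circle per library and a bar at the group mean, in the order of the pathway. Npc2 stood highest at 243 to 318 FPKM. Idi1 (1.70 to 2.39 FPKM), Pmvk (1.33 to 2.84 FPKM) and Nr1h3 (1.93 to 3.05 FPKM) stood near the bottom. Every HFHG value lay above every LG value in 12 members and below in 10, and 59.2% of all tested genes separated in this way. In the other 10 members the groups overlapped.

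Among the 18 synthesis enzymes, 8 rose and 5 fell in HFHG, and the median log2FC was -0.005, against 0.017 for all tested genes. The share called was 72.2%, against 64.8% of all tested genes. With quantile normalization the 8 higher calls stood beside 8 lower ones. Summed over the 18 genes, FPKM was 189 to 195 in HFHG libraries and 195 to 201 in LG libraries, so the total message for the enzymes was almost level while its composition shifted. The 8 enzymes that lead to squalene held 3 higher and 2 lower calls (median -0.084), and the 10 that work on squalene and the sterols after it held 5 higher and 3 lower calls (median 0.108).

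At the entry of the pathway, Hmgcs1, the cytosolic synthase that makes HMG-CoA and a classical SREBP target, rose. It had 12.3, 11.5, 11.8 and 13.0 FPKM in HFHG replicates 1 to 4 and 9.10, 9.54, 8.57 and 7.92 FPKM in LG replicates 1 to 4. All HFHG values lay above all LG values, and Hmgcs1 was 1.38-fold higher (log2FC 0.47, standard error 0.0613, adjusted p = 2.39e-05 by limma). Its promoter is shown because it alone, among the 26 members with a promoter in the RefSeq table, held an exact match to the sterol regulatory element TCACNCCAC. Both strands were searched from 250 bases before to 50 bases after the annotated start. An exact match was present in 1.24% of all 32851 promoters of that length. Near matches were not counted, so the other promoters are not shown to lack such an element. In the following stretch of the plus strand, chr13:119690174-119690262 of GRCm38, the capitals mark the element, 137 to 129 bases upstream of the start.
Hmgcs1: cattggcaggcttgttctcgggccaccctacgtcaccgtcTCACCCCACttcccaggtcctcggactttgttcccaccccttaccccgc

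The step before it, the thiolase Acat2, was 12.8 to 14.1 FPKM in HFHG and 11.2 to 12.2 FPKM in LG, a log2FC of 0.21 (adjusted p = 0.00137 by limma). Its near-identical neighbour Acat3 rose as well, from 8.87 to 12.6 FPKM, and how reads shared by this pair were assigned is not given in the sources used here. Pmvk, the phosphomevalonate kinase, had the largest increase of all members, although from a low level. It had 2.34, 2.76, 2.72 and 2.84 FPKM in HFHG and 1.74, 1.48, 1.79 and 1.33 FPKM in LG. The groups did not overlap, and the difference was 1.65-fold (log2FC 0.72, standard error 0.105, adjusted p = 6.15e-05 by limma). Mvk, the kinase that acts just before Pmvk, had a log2FC of -0.06 with a 95% interval of -0.176 to 0.059, and its sign turned when FPKM were rescaled to the same sum (0.000134).

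The enzymes that follow went the other way. Mvd, which decarboxylates mevalonate pyrophosphate, had 8.13, 6.53, 9.28 and 8.76 FPKM in HFHG and 10.2, 10.7, 10.3 and 11.4 FPKM in LG. It was 1.31-fold lower in HFHG (log2FC -0.39, adjusted p = 0.00209 by limma), with HFHG replicate 2 the lowest of the 8 libraries. Fdps, the farnesyl pyrophosphate synthase, was the most abundant synthesis enzyme, at 30.1 to 33.5 FPKM in HFHG and 36.7 to 39.7 FPKM in LG, and it fell by 0.24 on the log2 scale (adjusted p = 0.00013 by limma). Sqle, the squalene epoxidase and a rate-limiting enzyme of the late pathway, had 18.2, 17, 16.8 and 16.0 FPKM in HFHG and 20.3, 21.6, 21.1 and 21.7 FPKM in LG. Every HFHG library lay below every LG library, and Sqle was 1.25-fold lower (log2FC -0.32, standard error 0.0438, adjusted p = 3.64e-05 by limma). Idi1, Fdft1 and Lss, which isomerise isopentenyl pyrophosphate, join farnesyl units into squalene and close the sterol ring, had log2FC of -0.19, -0.11 and -0.11 and did not pass (adjusted p = 0.092, 0.103 and 0.135 by limma). Idi1 passed without HFHG replicate 2 (-0.252, adjusted p = 0.0424 by limma), and all 3 passed as lower with quantile normalization. Exons of Fdft1 overlap those of Ctsb on the opposite strand, a very abundant gene that fell from 1839 to 1219 FPKM, and the strand setting of the counting is not given in the sources used here.

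After ring closure the enzymes again divided. Hsd17b7, a ketosteroid reductase of sterol demethylation, had the most significant change of the synthesis enzymes. It had 9.48, 10.4, 10.1 and 10 FPKM in HFHG and 6.66, 6.73, 6.56 and 6.38 FPKM in LG. The gap between the groups was wide beside the spread within them, and the difference was 1.51-fold (log2FC 0.60, standard error 0.0462, adjusted p = 1.71e-07 by limma). Msmo1 and Nsdhl act in the same demethylation steps. Msmo1 was 19.2 to 21.1 FPKM in HFHG and 21.6 to 23.4 FPKM in LG and fell (log2FC -0.18, adjusted p = 0.0013 by limma), and Nsdhl had a log2FC of 0.05 with an interval of -0.1 to 0.196. Cyp51, the lanosterol demethylase, had 10.7, 9.87, 10.7 and 11.3 FPKM in HFHG and 9.15, 7.55, 8.06 and 9.03 FPKM in LG, a log2FC of 0.33 (adjusted p = 0.000722 by limma). Exons of Cyp51 overlap those of Akap9 on the opposite strand, which had 2.31 FPKM in HFHG and 2.11 FPKM in LG. Tm7sf2, a sterol reductase, had a log2FC of 0.44 (adjusted p = 0.00578 by limma), but its groups overlapped at 3.70 to 5.55 and 2.85 to 3.85 FPKM. Exons of Tm7sf2 overlap those of Vps51 on the same strand. Vps51 fell, from 8.45 FPKM in LG to 6.92 FPKM in HFHG (log2FC -0.29, adjusted p = 0.000279 by limma).

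Ebp, the sterol isomerase that acts between the demethylations and the final reductions, had the largest decrease of the synthesis enzymes. It had 11.7, 12.1, 11.6 and 10.6 FPKM in HFHG and 14.2, 15.8, 17.1 and 16.5 FPKM in LG. The groups were separate, and Ebp was 1.38-fold lower (log2FC -0.46, standard error 0.0586, adjusted p = 1.75e-05 by limma). The desaturase Sc5d and the reductase Dhcr7, which take the product of EBP onward, both rose. Sc5d was 12.2 to 13.1 FPKM in HFHG and 10.7 to 11.8 FPKM in LG (log2FC 0.17), and Dhcr7 was 6.66 to 7.03 FPKM in HFHG and 5.39 to 6.17 FPKM in LG (log2FC 0.27, adjusted p = 0.00561 and 0.00092 by limma).

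**Figure D2:**
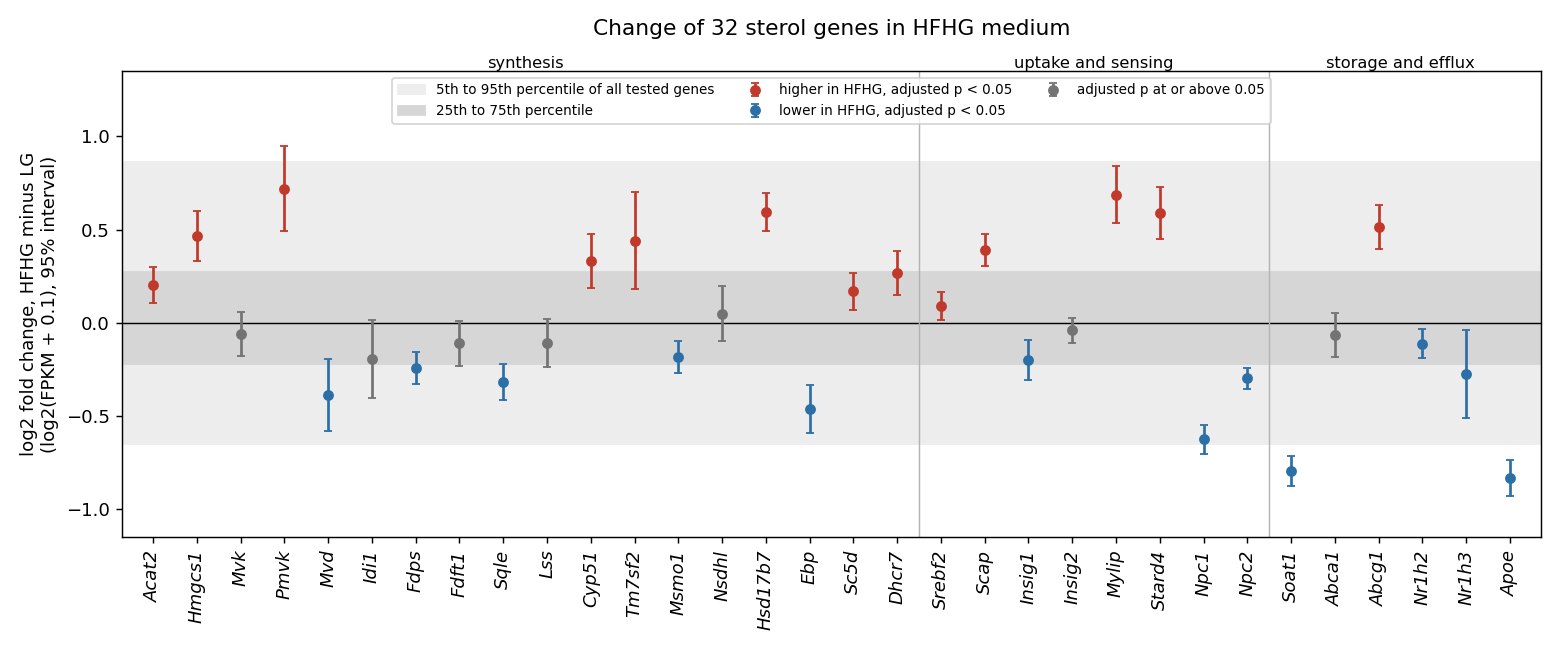
Log2FC (HFHG minus LG, on log2(FPKM + 0.1)) of the 32 members with 95% intervals from limma, coloured by call, over bands that hold the 25th to 75th (-0.222 to 0.275) and the 5th to 95th percentile (-0.653 to 0.864) of all 11710 tested genes. Rising and falling enzymes both occur along the synthesis chain, and Soat1 and Apoe lie below the wider band.

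Among the 8 genes of uptake and sensing, 4 were higher and 3 were lower in HFHG (median log2FC 0.026). In all 87.5% were called, against 64.8% of all tested genes. The sensor itself changed unevenly. Scap, the sterol-sensing escort of SREBP2, had 24.2, 25.1, 24.7 and 23.6 FPKM in HFHG and 19.1, 19.6, 18.0 and 17.7 FPKM in LG. No HFHG library overlapped with LG, and Scap was 1.31-fold higher (log2FC 0.39, standard error 0.0401, adjusted p = 2.52e-06 by limma). Srebf2, which encodes SREBP2, differed far less, with 21.2, 21.0, 20.4 and 21.6 FPKM in HFHG and 19.1, 20.3, 19.9 and 19.7 FPKM in LG (log2FC 0.09, adjusted p = 0.0345 by limma). The groups met almost edge to edge, and the call for Srebf2 was fragile. Its adjusted p-value by limma was 0.0762 with the replicate number as a block and 0.0717 with median-ratio scaling, and it was 0.0737, 0.0618 and 0.0947 without HFHG replicate 1, 2 or 4 and 0.102 and 0.0552 without LG replicate 1 or 3. Rescaling FPKM to the same sum gave a log2FC of 0.15 (adjusted p = 0.00364 by limma).

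The INSIG proteins retain SCAP in the endoplasmic reticulum, and Insig1 is itself an SREBP target. Insig1 had 11.2, 10.1, 10.5 and 10.2 FPKM in HFHG and 12.6, 11.7, 12.6 and 11.5 FPKM in LG. It was lower in every HFHG library (log2FC -0.20, adjusted p = 0.00348 by limma). Insig2 was the more abundant paralog, at 27.3 to 29.2 FPKM in HFHG and 28.7 to 29.5 FPKM in LG, and its log2FC of -0.04 had an interval of -0.107 to 0.028 (0.0194 when FPKM were rescaled to the same sum).

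Sterol transport inside the cell held larger changes. Stard4, a soluble cholesterol carrier, had 3.92, 3.86, 3.74 and 3.80 FPKM in HFHG and 2.57, 2.47, 2.66 and 2.37 FPKM in LG. The values were tight in both groups, and Stard4 was 1.5-fold higher (log2FC 0.59, standard error 0.0642, adjusted p = 4.35e-06 by limma). Mylip, which encodes IDOL, the ubiquitin ligase that sends lipoprotein receptors to degradation and a liver X receptor target, had 8.14, 9.29, 7.43 and 8.65 FPKM in HFHG and 5.59, 5.04, 5.04 and 4.94 FPKM in LG. It was 1.61-fold higher without overlap (log2FC 0.69, standard error 0.0701, adjusted p = 2.35e-06 by limma).

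Npc1 and Npc2 hand cholesterol from digested lipoproteins out of the lysosome, NPC2 as the soluble carrier and NPC1 as the membrane transporter. Npc1 had 21.5, 22.3, 21.2 and 20.6 FPKM in HFHG and 33.9, 34.0, 32.3 and 32.3 FPKM in LG. The groups were far apart, and Npc1 was 1.54-fold lower (log2FC -0.63, standard error 0.0355, adjusted p = 8.69e-09 by limma). Npc2 had 255, 248, 251 and 243 FPKM in HFHG and 303, 298, 307 and 318 FPKM in LG, a log2FC of -0.30 (standard error 0.0251, adjusted p = 3.75e-07 by limma). Both fell without overlap, and 14.6% and 42.6% of all tested genes changed by more than Npc1 and Npc2. With quantile normalization the log2FC of Npc2 was -0.0858 (adjusted p = 0.000661 by limma). Exons of Npc1 overlap those of Rmc1 on the opposite strand, which had 13.7 FPKM in HFHG and 14.3 FPKM in LG.

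Of the 6 genes of storage and efflux, 1 was higher and 4 were lower in HFHG (median log2FC -0.194), and when FPKM were rescaled to the same sum 2 were lower. Without that rescaling 83.3% were called, against 64.8% of all tested genes. Soat1 (chr1:156424525-156474331, GRCm38), which esterifies cholesterol for lipid droplets, had 22.0, 20.4, 21.7 and 21.5 FPKM in HFHG and 38.0, 36.8, 38.4 and 35.6 FPKM in LG. No library came near the other group, and Soat1 was 1.74-fold lower (log2FC -0.80, standard error 0.0364, adjusted p = 1.15e-09 by limma), a change exceeded in size by 8.96% of all tested genes. Apoe (chr7:19696109-19699188), the apolipoprotein that accepts exported cholesterol, had 10.4, 9.60, 10.7 and 9.97 FPKM in HFHG and 18.0, 17.6, 17.8 and 19.1 FPKM in LG. This was the largest change of all members, 1.78-fold lower (log2FC -0.83, standard error 0.0443, adjusted p = 4.66e-09 by limma).

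Apoe, Soat1, Npc1 and Npc2 are also well expressed in macrophages, and 10 of the 14 tested macrophage markers fell in the same libraries. Of the 32 members, 13 rose in these libraries, and their expression in macrophages was not examined. C1qa was 18.6 ± 0.549 FPKM in HFHG and 36.6 ± 2.68 FPKM in LG (SD, n = 4 each), a log2FC of -0.97. Those of Mrc1, Tyrobp, Adgre1 and Lyz2 were -0.86, -0.62, -0.52 and -0.11, while Cd14 and Aif1 rose (0.26 and 0.33). The log2FC of C1qc, C1qb, Cd68, Laptm5 and Csf1r were -0.78, -0.68, -0.31, -0.16 and -0.13. Ptprc and Fcgr1 did not pass (-0.19 and 0.09). Of the 13 markers of tendon and fibroblasts, 10 moved the other way in the same libraries, with Col1a1 2.57-fold and Col3a1 1.88-fold higher in HFHG. Mkx and Cd44 were lower (log2FC -0.35 and -0.13), and Dcn did not pass (-0.01). The part of either cell type in the sterol genes was not tested, and in bulk samples fewer cells of a type and less RNA per cell cannot be told apart.

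The export pumps differed from each other. Abcg1 (chr17:31057675-31117988), which moves cholesterol to lipoprotein particles, had 6.43, 6.51, 6.69 and 6.64 FPKM in HFHG and 4.56, 4.48, 4.31 and 4.93 FPKM in LG. It was 1.43-fold higher without overlap (log2FC 0.51, standard error 0.0552, adjusted p = 3.74e-06 by limma). Abca1, which loads cholesterol onto lipid-poor apolipoproteins, had 11, 11.1, 10.7 and 11.7 FPKM in HFHG and 11.7, 12.4, 12.2 and 10.5 FPKM in LG. The groups overlapped, and its log2FC of -0.07 had an interval of -0.186 to 0.054. Without LG replicate 4, the lowest of the 8, Abca1 passed as lower in HFHG (-0.116, adjusted p = 0.0408 by limma). Its promoter was the only one of the 26 that held GGTNA, any 5 bases and then GGTCA, a direct repeat of the kind liver X receptors bind, on either strand, which 0.207% of all promoters held. In the following stretch, chr4:53159908-53160002 of GRCm38, minus strand, the capitals mark the repeat, which reads on the opposite strand of the gene and lies 67 to 53 bases upstream of the start.
Abca1: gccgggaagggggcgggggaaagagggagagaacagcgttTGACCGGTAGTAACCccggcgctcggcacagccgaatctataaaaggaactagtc

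The receptors themselves were not higher. Nr1h2 (LXRβ) was abundant, at 45.7 to 47.3 FPKM in HFHG and 46.9 to 52.9 FPKM in LG, with a log2FC of -0.11 (adjusted p = 0.0149 by limma, and 0.158 when FPKM were rescaled to the same sum). Nr1h3 (LXRα), which is prominent in macrophages, had 1.93, 2.25, 2.27 and 2.76 FPKM in HFHG and 3.05, 2.52, 2.58 and 3.04 FPKM in LG. The groups overlapped, and the log2FC of -0.28 passed narrowly (standard error 0.108, adjusted p = 0.0399 by limma). The Nr1h3 call was lost without HFHG replicate 1, 2 or 3 (adjusted p = 0.122, 0.0746 and 0.0725 by limma) and without LG replicate 1 or 4 (0.104 and 0.0992). It was also lost with no filter, after rescaling FPKM to equal sums, and with voom on recovered reads (adjusted p = 0.0832, 0.0937 and 0.0577 by limma).

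Partners were also compared within each library, since a ratio of FPKM from the same library does not depend on the scaling between libraries. With 70 ways to arrange 4 against 4 libraries, the two-sided exact permutation test cannot give less than p = 0.0286, and p-values were adjusted over the 6 pairs. The Abca1 to Abcg1 ratio was 2.55 in LG and 1.70 in HFHG, lower in each HFHG library than in any LG library (difference -0.59 on the log2 scale, exact permutation p = 0.0286, adjusted 0.0429). Npc1 relative to Npc2 went from 0.108 to 0.0859 (difference -0.33), and Srebf2 relative to Scap from 1.06 to 0.862 (difference -0.30). In the other direction, the ratio of Sqle, a gene of synthesis, to Soat1, the gene of esterification, went from 0.57 in LG to 0.794 in HFHG (difference 0.479). These 3 ratios did not overlap between the groups either and had the same p-values by the exact permutation test (p = 0.0286, adjusted 0.0429). Such p-values are the lowest this test can give and do not rank the pairs. Of single genes, 59.2% of all tested ones separated in this way, and no such share was computed for ratios of other pairs. Insig1 to Insig2 (difference -0.16, exact permutation p = 0.0571, adjusted 0.0685) and Nr1h3 to Nr1h2 (difference -0.18, exact permutation p = 0.2) did not pass.

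**Figure D3:**
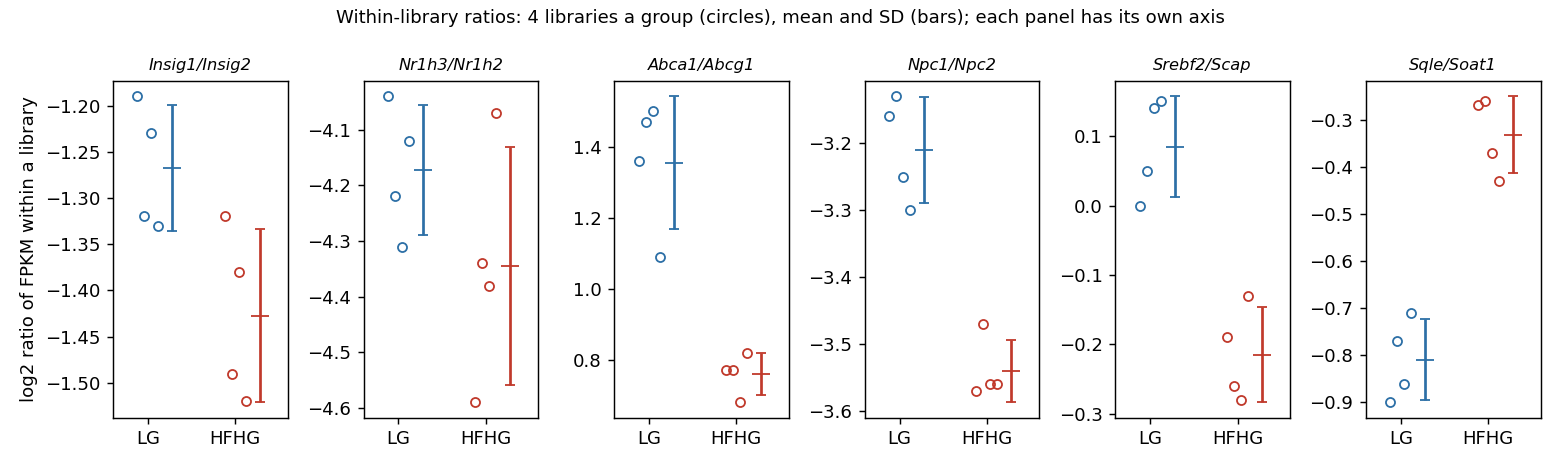
Log2 ratio of the FPKM of a pair of members within each library (y axis, separate scale in each panel), 4 LG and 4 HFHG libraries as circles, with the mean and SD beside them. The groups are apart for Abca1/Abcg1, Npc1/Npc2, Srebf2/Scap and Sqle/Soat1 and overlap for Insig1/Insig2 and Nr1h3/Nr1h2.

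SREBPs bind together with NF-Y, which recognises CCAAT boxes, and these were counted in the promoters. The letters CCAAT were searched on both strands from 250 bases before to 50 bases after each annotated start in the RefSeq table (GRCm38.p6), in which 26 of the 32 members had a promoter. Of those, 20 held a box, which is 76.9%, against 42.9% of the 9376 tested genes with a promoter. Among synthesis enzymes it was 14 of 15, the exception being Acat2, and 9 of the 15 held at least 2 boxes, as did 16.6% of tested genes. In uptake and sensing it was 5 of 6, and in storage and efflux 1 of 5, Soat1. The box was shared by enzymes that moved in opposite directions. It was present in 7 of the 8 synthesis enzymes that rose, in all 3 of those that fell and had a promoter (Mvd, Msmo1 and Ebp), and in all 4 of those that did not pass. The stretches below belong to the enzymes with the clearest rise and the largest fall, Hsd17b7 (chr1:169969326-169969410, minus strand) and Ebp (chrX:8193523-8193607, minus strand), and both are read in the direction of the gene. Capitals mark 1 box in each, which reads CCAAT on the opposite strand, 165 to 161 and 55 to 51 bases upstream of the start. Hsd17b7 also held boxes 73 to 69 and 12 to 8 bases upstream, and Ebp held another 170 to 166 bases upstream.
Hsd17b7: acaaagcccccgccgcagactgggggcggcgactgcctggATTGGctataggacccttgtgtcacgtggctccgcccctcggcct
Ebp: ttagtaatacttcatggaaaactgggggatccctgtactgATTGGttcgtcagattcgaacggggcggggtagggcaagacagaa

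**Figure D4:**
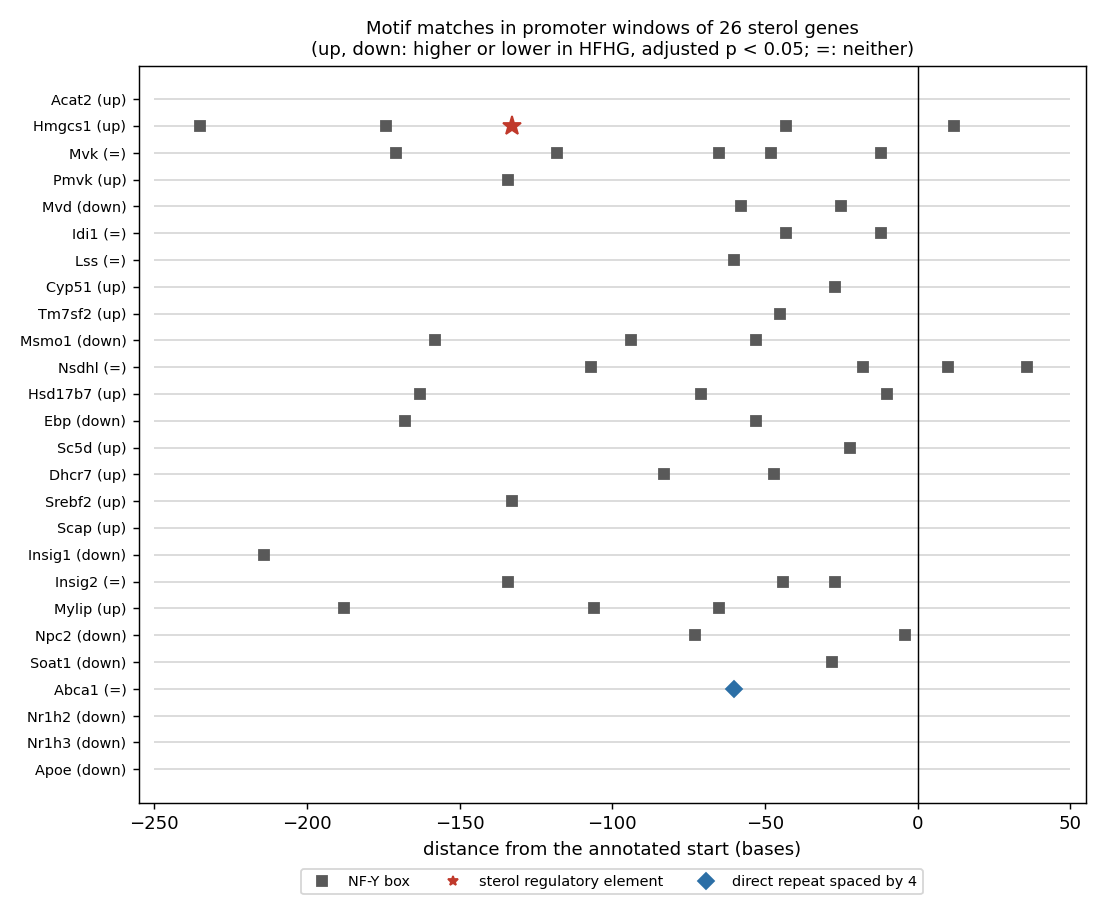
Matches to the NF-Y box (squares), the sterol regulatory element (star) and the direct repeat (diamond) by distance in bases from the annotated start (x axis) in the 26 members with a promoter (rows), with up to 3 alternative starts of a gene overlaid. Boxes occur in rising, falling and uncalled genes alike, and no exact match to the 3 motifs was found in Acat2, Scap, Nr1h2, Nr1h3 and Apoe.

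The rest of the pathway, in lists that do not overlap with the 32 genes, was as mixed. Of 14 further genes of synthesis and its control, 4 were higher and 7 were lower (median log2FC -0.095). That is 78.6% called, against 64.8% of all tested genes. Fbxw7, a ubiquitin ligase subunit that targets SREBPs, rose by 0.57, and the mitochondrial thiolase Acat1 rose by 0.32. The endoplasmic reticulum proteins Erlin1 and Erlin2, which restrain SREBP activation, fell by 0.40 and by 0.39. Of 10 tested genes of the isoprenoid branch, which draws on farnesyl pyrophosphate, 3 were higher and 2 were lower. This share of 50% lay below the 64.8% of all tested genes. Fnta, the subunit shared by farnesyl and geranylgeranyl transferases, was 1.53-fold higher (36.5 ± 2.57 FPKM in LG and 55.8 ± 1.54 FPKM in HFHG, SD, n = 4 each), and Icmt rose by 0.12, while Rce1 and Dhdds fell by 0.24 and by 0.16. The Rce1 call was lost without HFHG replicate 1 or LG replicate 4 (adjusted p = 0.0526 and 0.0525 by limma), and that of Dhdds without HFHG replicate 3 or LG replicate 1 (0.0578 and 0.0537) or with FPKM rescaled to the same sum (log2FC -0.0974, adjusted p = 0.129 by limma).

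Of 14 further tested genes of uptake and transport, 4 were higher and 6 were lower (71.4% called, against 64.8% of all tested genes). Cav1, the coat protein of cholesterol-rich caveolae, was 1.71-fold higher, and Scarb1, the receptor for high density lipoprotein, was 1.65-fold higher at 7.73 ± 0.423 against 4.65 ± 0.412 FPKM (SD, n = 4 each). Gramd1b, which carries cholesterol from the plasma membrane to the endoplasmic reticulum, fell by 0.76 (log2FC -0.5 with a pseudocount of 1), and the lipoprotein receptor gene Vldlr fell by 0.51 on the log2 scale.

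Changes beyond 2-fold were found in the list of efflux and oxysterol metabolism and in none of the other sterol lists. Of its 15 tested genes, 6 were higher and 7 were lower (86.7% called, against 64.8% of all tested genes). The 3 beyond 2-fold were Ch25h, Cyp46a1 and Soat2. With a pseudocount of 1 the log2FC of Cyp46a1 was 0.899, below 2-fold, and that of Soat2 was -1.22. Ch25h, a cholesterol hydroxylase whose product restrains SREBP processing and activates liver X receptors, went from 92.5 ± 1.96 FPKM in LG to 38.8 ± 0.494 FPKM in HFHG (SD, n = 4 each), a log2FC of -1.25 (adjusted p = 8.83e-13 by limma). Cyp7b1, which breaks such oxysterols down, was 1.99-fold higher (log2FC 0.99, adjusted p = 1.85e-09 by limma). Cyp46a1, another cholesterol hydroxylase, rose from 0.579 to 1.94 FPKM (3.02-fold, adjusted p = 7.62e-08 by limma). Soat2, the paralog of Soat1, fell from 3.13 to 0.759 FPKM (log2FC -1.91, adjusted p = 2.51e-07 by limma).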

How the data were processed

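TSCs in HFHG or LG medium, 4 libraries each, were profiled by stranded mRNA sequencing. The authors deposited FPKM for 19301 genes with replicates kept separate. The submitters' notes name HISAT2 2.1.0 and mm10, and the counting program and annotation are not given in the sources used here. Groups and replicate numbers came from the sample titles.

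Whole reads behind the FPKM were recovered for 19301 of 19301 genes, as the smallest whole numbers that match within 0.001 reads. They served for depth and for 1 alternative. FPKM of at least 0.5 in at least 4 libraries, a pseudocount of 0.1, limma 3.58.1 (lmFit and eBayes with trend, R 4.3.3) and Benjamini-Hochberg adjustment over 11710 genes were used. The procedure was tested on simulated data, in which 200 of 11710 genes were changed. There 58% of changes of 0.3 and 94% of changes of 0.6 on the log2 scale were called. In these data 64.8% of tested genes were called, which makes the adjusted threshold less strict than in the simulation. Those shares therefore need not hold here, and small changes can still be missed. Ratios were tested with exact permutation in scipy 1.17.1. P-values weigh the difference between the media against the spread between these libraries. As the number of animals behind the libraries is not given, they may not extend to other mice. Alternatives varied the pseudocount, the filter, the scaling, the replicate block and the variance model, used voom on recovered reads, and left out each library in turn. Positions are from GENCODE M21 and promoters from RefSeq, both GRCm38, the assembly named mm10.

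The members and lists were chosen with earlier results of these data known. All members may be named, and of each other list the 2 genes with the largest increase and decrease. Some genes of these lists are counted but not reported by name here, and the next in size was named instead. Cd163 and the other cell markers are from fixed lists. Acat3, Ctsb, Akap9, Vps51 and Rmc1 were named after their values were seen.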

Additional observations from a re-analysis of the deposited data

Results flagged for a closer look

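In the 4 LG libraries, Mylip was 5.59 FPKM in replicate 1 and 4.94 to 5.04 FPKM in the other 3, a gap of 0.837 of the whole range. This was the only member group in which the highest or lowest library lay farther from the others than Dixon's critical value for 4 samples allows. With 64 groups of 4 examined, about 1 in 20 would be marked by chance.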

How the results depend on the processing

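Of the 25 members called, 22 kept direction and call in all 10 alternatives on processing and in all 8 fits that left out 1 library. The other 3 were Srebf2, Nr1h2 and Nr1h3. With quantile normalization, 8 synthesis enzymes were lower in place of 5. When FPKM were rescaled to the same sum, 3 genes of storage and efflux were called in place of 5, and 2 were lower in place of 4. In the same setting Mvk (0.000134) and Insig2 (0.0194) changed sign without passing. These counts moved with the scaling. FPKM summed to 402404 to 409466 in the HFHG libraries and to 416926 to 433432 in the LG libraries. Rescaling to the same sum therefore raised HFHG values relative to LG values. Why the sums differed, and why quantile normalization changed calls, was not tested. Rescaling moved the median log2 fold change of all genes from 0.017 to 0.075 and quantile normalization moved it to -0.022. Leaving out 1 library gave 13 to 14 called synthesis enzymes, 6 to 7 genes of uptake and sensing and 4 to 5 of storage and efflux, and 7057 to 7480 genes in all. Same-numbered HFHG and LG libraries did not deviate together (correlations of -0.021, -0.010, -0.006 and -0.074). With the replicate number as a block, 7342 genes were called in place of 7592, and among the members only the call of Srebf2 changed. The Abca1/Abcg1 difference was -0.678 to -0.543 with each library left out in turn. FPKM is relative to the total of the library and every member had at least 150 reads in each library.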
